A study of Mus musculus with 6 samples.

Results

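The 47 genes described here encode the shared protein core of the spliceosome. Among them are the Sm and LSm rings and the U2 particle with the factors that recognise the 3' splice site. The U4/U6 and U5 proteins are grouped here with Prpf38a as the tri-snRNP. The core of the PRP19 complex and helicases that remodel these particles complete the set. All 47 were taken by gene symbol from the 55401 rows of the deposited table, and each symbol matched 1 row. All 47 passed the filter on low counts that left 17573 genes for testing. The rule is a list of symbols with no threshold on a measured value, drawn up with earlier results of this series known.

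RNA labelled with 4-thiouridine (4sU), a uridine analogue that cells build into RNA made while it is present, was captured through biotin. The cells were mouse embryonic stem cells (129/Ola), grown with serum and leukemia inhibitory factor. The line, named ZFP207AID in the treatment protocol, carries an auxin-inducible degron (AID) on the zinc finger protein ZFP207, so that IAA (indole-3-acetic acid, an auxin) sends the tagged protein to the proteasome. The control group (AID 0h, genotype label WT, 3 libraries) was kept without IAA, and the depleted group (AID 5h, genotype label naming ZFP207 degradation, 3 libraries) had IAA for 5 h. The genotype label WT and the titles, which name the degron for both groups, do not settle whether the controls carry the tag. Both groups were labelled with 4sU, no IAA-treated cells without a degron were analysed here, and the sources used here do not give the number of clones, the length of the 4sU pulse or a spike-in. The series asks how ZFP207 bears on U1 snRNP, the particle that pairs with 5' splice sites.

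The libraries held 14336811 to 25916628 counts. Levels are CPM scaled by TMM (a trimmed mean of log ratios between libraries), which put each count relative to the effective size of its library, and because a longer transcript takes more reads, no level is compared between genes. On the first principal component of all genes tested (32.4% of the variance), both replicate 2 libraries lay above 0, the control at 83.5 and the depleted one at 31.9. The other 4 lay below 0, the controls at -3.58 and -10.7 and the depleted ones at -35.5 and -65.7 (replicates 1 and 3). For each replicate number the depleted library lay lower than the control. Libraries with the same replicate number deviated together from their group means, and a fit with the number as a block (the paired fit) is therefore given beside the fit without it (the unpaired fit). All 10 markers of pluripotent cells were counted, with summed levels of 4226 to 4801 CPM in controls and 4606 to 5113 CPM in depleted libraries. The sum covers changes in both directions. At an adjusted p under 0.05 the paired edgeR fit called 2 of the 10 higher and 1 lower, against 4.96% and 7.9% of all genes tested. The 9 fibroblast markers summed to 6.24 to 10.9 CPM and 2.99 to 5.96 CPM, with Col3a1, Postn, Dcn and Lum at 0 in every library. The 7 primitive endoderm markers summed to 4.61 to 9.37 CPM and 9.13 to 10.7 CPM, and the 7 markers of early differentiated cells, with T at 0, to 47.7 to 96.4 CPM and 50.01 to 90.7 CPM. The part of these lists in the results was not tested. Zfp207 RNA was counted at 545, 1116 and 548 CPM without IAA and at 695, 1467 and 596 CPM with it (replicates 1 to 3), which does not check the loss of the protein.

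The spliceosome is built anew on each intron. Sm proteins form a ring around the snRNAs of the U1, U2, U4 and U5 particles, and LSm proteins form a related ring at the 3' end of U6 snRNA. The U2 particle marks the branch point with its SF3A and SF3B complexes, the tri-snRNP then brings U4, U5 and U6, and the PRP19 complex and a series of RNA helicases turn the assembly into a catalytic machine and later take it apart. The genes are active in all cell types, embryonic stem cells included.

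The upstream promoter sequences of 6 members are shown because they belong to the genes on which the results turn: Snrpe, Sf3b3, Cdc5l and Prpf19 were higher after IAA in the paired fit, whereas Snrpg and Sf1 were the members of their groups with the lowest fold change. Each is the 250 bases before an annotated start in RefSeq for GRCm38.p6 (the assembly that mm10 names), written 5' to 3' on the strand of the gene, with capitals marking matches to the motifs listed after the sequences.
Snrpe, chr1:133610281-133610530, minus strand: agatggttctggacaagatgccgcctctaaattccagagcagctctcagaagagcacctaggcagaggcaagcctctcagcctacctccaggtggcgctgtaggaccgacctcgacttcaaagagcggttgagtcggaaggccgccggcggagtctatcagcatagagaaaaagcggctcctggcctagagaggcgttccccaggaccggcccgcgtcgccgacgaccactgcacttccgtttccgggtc
Snrpg, chr6:86371290-86371539, plus strand: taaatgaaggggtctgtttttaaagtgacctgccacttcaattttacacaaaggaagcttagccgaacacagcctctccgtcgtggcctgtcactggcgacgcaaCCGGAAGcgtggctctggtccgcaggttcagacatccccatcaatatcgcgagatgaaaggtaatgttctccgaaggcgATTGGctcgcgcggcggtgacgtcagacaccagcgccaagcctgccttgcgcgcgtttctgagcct
Sf3b3, chr8:110846804-110847053, minus strand: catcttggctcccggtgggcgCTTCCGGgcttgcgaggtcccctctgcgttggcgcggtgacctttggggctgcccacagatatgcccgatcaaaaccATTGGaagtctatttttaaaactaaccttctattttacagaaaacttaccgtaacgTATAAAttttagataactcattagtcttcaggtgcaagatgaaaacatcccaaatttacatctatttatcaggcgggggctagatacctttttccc
Sf1, chr19:6363440-6363689, plus strand: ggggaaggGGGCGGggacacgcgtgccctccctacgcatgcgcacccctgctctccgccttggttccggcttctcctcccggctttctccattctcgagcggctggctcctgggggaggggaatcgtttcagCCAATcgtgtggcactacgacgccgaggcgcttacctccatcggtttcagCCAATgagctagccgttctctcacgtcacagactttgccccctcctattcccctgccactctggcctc
Cdc5l, chr17:45433708-45433957, minus strand: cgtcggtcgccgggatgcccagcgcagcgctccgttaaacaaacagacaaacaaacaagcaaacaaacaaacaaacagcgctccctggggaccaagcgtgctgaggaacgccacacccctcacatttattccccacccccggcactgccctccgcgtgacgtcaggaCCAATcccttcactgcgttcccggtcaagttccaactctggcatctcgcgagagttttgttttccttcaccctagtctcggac
Prpf19, chr19:10894981-10895230, plus strand: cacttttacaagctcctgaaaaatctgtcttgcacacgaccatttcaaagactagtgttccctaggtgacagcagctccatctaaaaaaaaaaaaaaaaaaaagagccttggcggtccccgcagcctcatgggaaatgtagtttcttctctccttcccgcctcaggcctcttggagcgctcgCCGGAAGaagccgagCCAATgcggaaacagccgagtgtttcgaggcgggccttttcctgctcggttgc
The GC box, to which SP-family factors bind, was searched as GGGCGG. The box that the factor NF-Y binds was searched by its usual letters CCAAT. For the core of a site of the ETS family the letters were CCGGAAG. The E-box was searched as CACGTG. Last, the TATA box was searched as TATAAA. Both strands were searched, so that a match may show as the reverse complement of these letters. None of these letter strings contains another, although neighbouring matches may overlap.

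RefSeq promoters were matched for 38 of the 47 genes, 44 windows in all. The ETS core stood in the window of 14 of the 38 genes (36.8%), against 6.91% of all 32851 promoter windows and 12.9% of the 14142 windows of genes tested here. The GC box was found for 22 genes (57.9%) against 32.7% of all windows and 56.5% of those of tested genes, and CCAAT for 17 genes (44.7%) against 33.8% and 35.8%. The TATA box was found for 1 gene, Sf3b3 (2.63%, against 12.4% and 6.60%), and the E-box for 2 genes (5.26%, against 6.02% and 8.18%). Some genes have more than 1 window, so a share over genes can differ slightly from one over the 44 windows, which was 34.1% for the ETS core and 45.5% for CCAAT. The median GC content was 57.8% in the 44 windows and 52.4% in all windows, and it was not computed for the windows of tested genes alone. Among the sequences printed, Snrpe holds none of the 5 motifs, Cdc5l holds CCAAT alone, Sf1 holds the GC box and CCAAT, and Snrpg, which was not called, holds the ETS core and CCAAT as Prpf19 does. These matches are letters in a window, and no binding was measured here.

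After 5 h of IAA most of these genes lay slightly above their control level, and 6 of the 47 passed the test with pairs, all of them upward. They were the Sm gene Snrpe (1.39-fold), the SF3B subunit gene Sf3b3 (1.31-fold), the 3' splice site factor gene U2af1 (1.19-fold), the U5 gene Snrnp40 (1.27-fold) and the PRP19 complex genes Cdc5l (1.27-fold) and Prpf19 (1.23-fold). They made up 12.8% of the members, against 4.96% of all genes tested that were called higher in this fit and 8.84% of the 9321 genes counted at least as highly as the least counted member. Called lower were 0 members, against 7.9% of all genes tested. The unpaired edgeR fit called 0 members at an adjusted p under 0.05, where it called 0.0114% of all genes higher and 0.78% lower. Before adjustment, edgeR without pairs had 4 members higher at p under 0.05 (Snrpe, Sf3b3, Snrnp40 and Cdc5l) and 0 lower, against 2.68% and 8.21% of all genes. With pairs edgeR had 15 members higher and 1 lower, against 13.3% and 14.6%. Of the 9321 better counted genes, 372 were higher and 805 lower at this p when pairs were left out. With pairs included, 2053 of those 9321 were higher and 1607 lower. In labelled RNA from many cells, a change in the number of cells that make a transcript and in the amount per cell cannot be told apart.

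**Figure D1:**
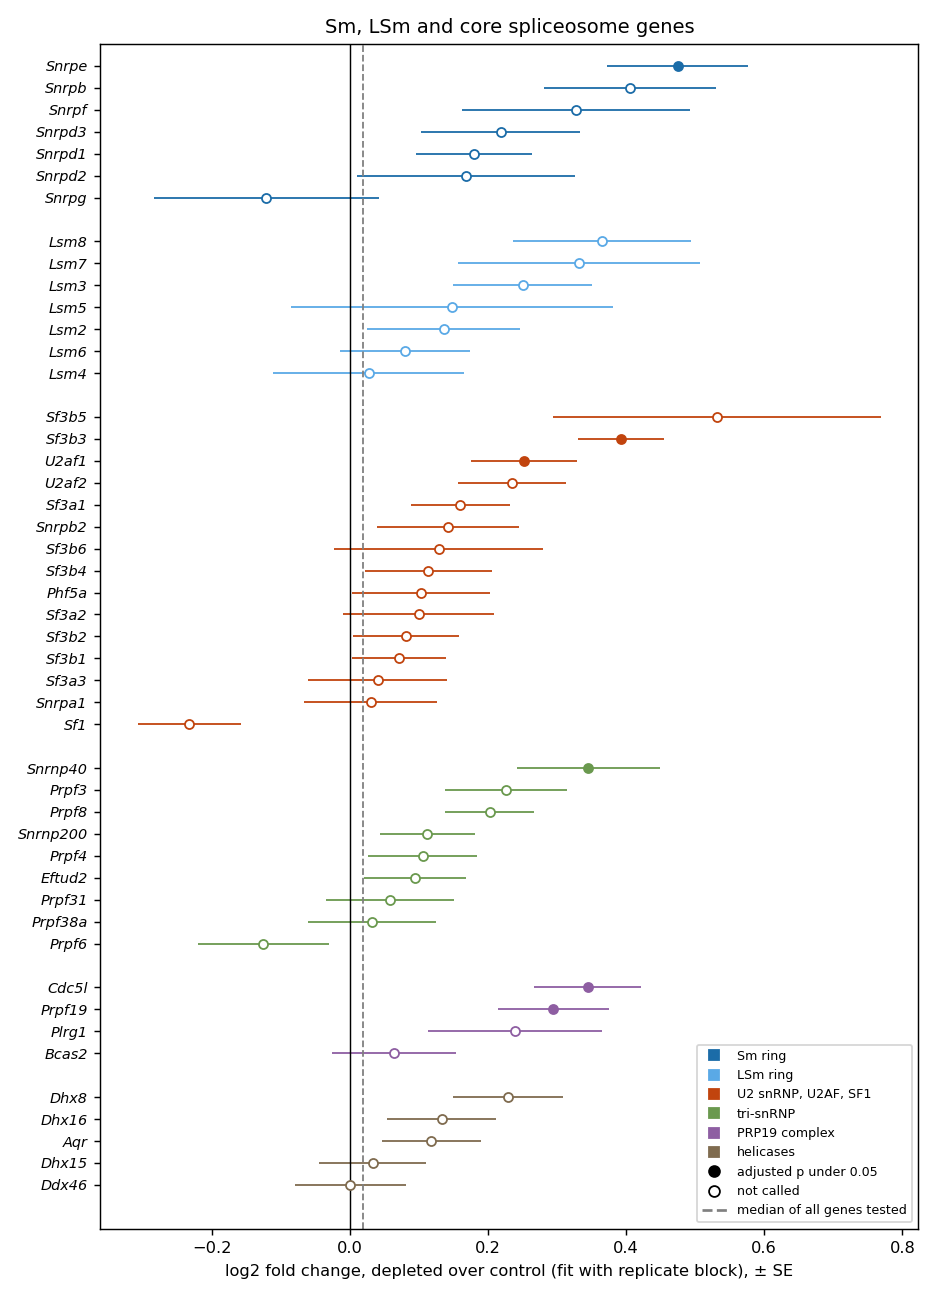
Log2 fold change (depleted over control, x axis) with its standard error from the paired edgeR fit for each of the 47 genes, ordered within 6 groups by colour, where filled points passed an adjusted p under 0.05. Of the 47 points 44 lie above 0, the 6 filled ones all among them, and Snrpg, Sf1 and Prpf6 lie below 0.

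The shift was small and spread over the groups. The log2 fold change was above 0 for 44 of 47 members (93.6%), against 52.3% of all genes tested, and the exceptions were Snrpg, Sf1 and Prpf6. Its median over the members was 0.14 in both fits, against 0.02 over all genes. Among the 9321 genes with a mean of at least 11.04 CPM, the level of the least counted member Lsm5, the median was 0.07 and 59.3% lay above 0. Within the pairs the member median was 0.147, 0.163 and 0.137, which is a mean of 0.149 ± 0.0129 (SD, n = 3 pairs), while that of all genes was -0.0069, 0.0523 and -0.0052. For the 9321 genes the pair medians were 0.0154, 0.110 and 0.0225. In all 3 pairs the depleted library was higher for 26 members (55.3%, against 24.2% of all genes and 33.2% of those 9321) and lower for 1, Sf1 (against 24.1%). For 10 members (21.3%) every depleted library lay above every control, against 6.94% of all genes and 9.18% of the 9321, and for 0 members did every depleted library lie below, against 11.8%. Without single libraries 37 to 42 members were above 0, with 37 when control replicate 2 or depleted replicate 1 was left out.

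**Figure D2:**
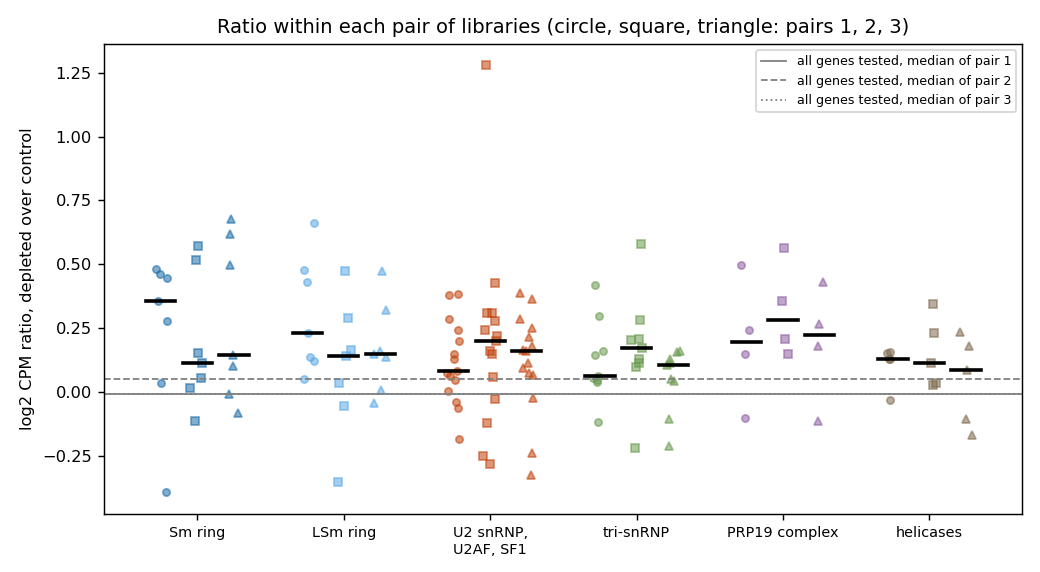
Log2 ratio of CPM in the depleted over the control library of each pair (y axis) for every member, by group (x axis), with black bars at the group median and grey lines at the median of all genes in each pair. All group medians lie above the line of their pair, and the widest spread within a pair belongs to the U2 group, where Sf3b5 reached 1.28 in pair 2. The Sm and helicase medians of pair 2 were both 0.114, near the 0.110 of the 9321 genes counted at least as highly as Lsm5, which have no line.

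The calls with pairs rested to different degrees on single pairs. The log2 fold change of Sf3b3 passed without any 1 of the 3 pairs (edgeR adjusted p = 0.00831, 0.0110 and 0.0201 without pairs 1, 2 and 3). Snrpe passed without pair 1 or 2, Cdc5l without pair 2 or 3, and Prpf19 without pair 2 only, while U2af1 and Snrnp40 passed only with all 3 pairs. Members called higher numbered 3 without pair 1, where Snrpb also passed, 4 without pair 2 and 2 without pair 3. Just past the threshold lay U2af1 (edgeR adjusted p = 0.0497) and just short of it Snrpb (0.05001), Sf1 (0.0585) and Prpf8 (0.0602). DESeq2 called Sf3b3 alone without the block (adjusted p = 0.0230), where 0.353% of all genes were higher and 3.3% lower. With the block it called 10 members higher, where 6.47% of all genes were higher and 7.97% lower, and the 10 were these 6 with Snrpb, U2af2, Prpf8 and Dhx8.

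Among the 7 Sm genes, whose products stand in equal number in the ring, 1 (14.3%) rose in the paired fit and 0 in the unpaired one. The paired fit called 4.96% of all genes tested higher, and 8.84% of the 9321 counted at least as highly as Lsm5. The fold changes of the 7 genes ran from -0.13 to 0.47 (unpaired log2). The Sm protein E gene Snrpe (chromosome 1, 133603871 to 133610280) had 56.0, 45.8 and 46.5 CPM in controls, in the order of replicates 1 to 3 kept from here on, and 71.7, 68.0 and 65.7 CPM in depleted ones. All 3 depleted libraries were above all 3 controls, and the group means were 49.4 ± 5.73 and 68.5 ± 3.04 CPM (SD, n = 3). Its log2 fold change of 0.47 was called with pairs (SE 0.10, edgeR adjusted p = 0.00976) and not without (SE 0.15, edgeR adjusted p = 0.277). Snrpb, which encodes the B and B' proteins and has a close paralog in Snrpn with which the counting could split reads, went from 53.3 ± 11.6 to 70.2 ± 10.4 CPM with a paired value of 0.41 (SE 0.12, edgeR adjusted p = 0.05001). Its replicate 2 libraries were the lowest of each group, at 42.9 and 61.4 CPM, and pair 1 differed least, at 65.8 and 67.4 CPM.

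Snrpg, the Sm protein G gene (chromosome 6, 86371540 to 86378902), stood apart from its ring partners in sign only. It had 24.7, 19.4 and 21.1 CPM in controls and 18.8, 20.9 and 19.97 CPM after IAA. The groups overlapped, the depleted library was higher in 1 of 3 pairs, and the unpaired log2 value came to -0.13 (SE 0.19, edgeR adjusted p = 0.876). Without pair 1 the paired value was 0.02. The most counted Sm gene was Snrpd1 (chromosome 18, 10617796 to 10628230) at 121, 93.2 and 115 CPM in controls and 147, 104 and 123 CPM in depleted libraries, higher in 3 of 3 pairs by 0.28, 0.15 and 0.10 (log2). Its groups overlapped, because replicate 2 was the lowest library of both. Snrpd2, Snrpd3 and Snrpf had log2 fold changes of 0.19, 0.23 and 0.36 and were not called in either fit. Summed over the ring, levels were 365, 293 and 325 CPM in controls and 439, 346 and 398 CPM in depleted libraries, higher in each pair.

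The 7 LSm genes, for the ring of U6 snRNA, gave 0 calls in either edgeR fit, with 0 members at an unadjusted p under 0.05 in the unpaired and 2 in the paired edgeR fit, and 0 calls by DESeq2 with or without the block. All 7 fold changes were above 0, from 0.03 to 0.38, with a median of 0.14 against 0.23 in the Sm ring. Lsm8 (chromosome 6, 18848635 to 18854052), the subunit that sets the nuclear ring apart from the cytoplasmic one of RNA decay, had 23.9, 41.8 and 31.1 CPM in controls and 33.3, 58.0 and 34.3 CPM after IAA. It was higher in each pair, yet the groups overlapped because replicate 2 was high in both, and the unpaired value of 0.38 was not called (SE 0.28, edgeR adjusted p = 0.698). The lowest was Lsm4 (chromosome 8, 70673231 to 70678752), at 27.6, 22.8 and 28.9 CPM and 29.997, 21.9 and 29.04 CPM, where the pairs went in both directions. Lsm6 (chromosome 8, 78804868 to 78821152), with the most counts of the ring, had 75.4, 62.4 and 75.7 CPM in controls and 82.9, 68.8 and 73.6 CPM in depleted libraries, and its groups overlapped too. Lsm2, Lsm3, Lsm5 and Lsm7 had values of 0.14, 0.25, 0.03 and 0.33.

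The U2 group holds 15 genes, of which 2 (13.3%) rose in the paired fit. This compares with 4.96% of all genes tested and 8.84% of the 9321 counted at least as highly as Lsm5. In the unpaired fit 0 rose, and Sf3b3 alone had an unadjusted p under 0.05 in edgeR. Sf3b3 encodes a large scaffold subunit of SF3B (chromosome 8, 110810491 to 110846806). It had 1104, 1064 and 1150 CPM in controls and 1442, 1432 and 1481 CPM after IAA. The control and depleted libraries each lay within a narrow band, with a gap between the highest control and the lowest depleted library. Its log2 fold change of 0.39 was called with pairs (SE 0.06, edgeR adjusted p = 0.00163) and not without (SE 0.12, edgeR adjusted p = 0.256), with pair values of 0.39, 0.43 and 0.36. Cog4, Gm15895 and the snoRNA gene Snord111 lie in or over its interval, and reads cannot be assigned by strand here.

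The other genes of SF3B and SF3A, apart from Sf3b5, had smaller fold changes than Sf3b3. Sf3b1, which encodes the subunit that clamps the branch helix, had a log2 fold change of 0.08 (SE 0.17) at 523 ± 64.6 and 553 ± 100.4 CPM, and Sf3b2 0.08 (SE 0.13). Sf3b4, Sf3b6, Phf5a, Sf3a1, Sf3a2 and Sf3a3 ran from 0.05 to 0.16, and the U2-specific genes Snrpa1 and Snrpb2 stood at 0.03 and 0.14. None of these 10 was called in any of the edgeR or DESeq2 fits with all libraries. The highest unpaired value of the group belonged to Sf3b5, a small subunit gene with a span of 0.734 kb (chromosome 10, 13008450 to 13009183). Its levels of 14.8, 4.33 and 13.1 CPM in controls and 17.5, 10.5 and 14.6 CPM in depleted libraries were low, control replicate 2 was the lowest of all, and the unpaired value of 0.40 (SE 0.43, edgeR adjusted p = 0.798) was smaller than its error. With pairs, where the depleted library was higher in 3 of 3, the value was 0.53 (SE 0.24) and was not called either (edgeR adjusted p = 0.167).

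Recognition of the 3' splice site involves U2AF, whose small subunit U2AF1 reads the terminal AG and whose large subunit U2AF2 reads the pyrimidine tract, and SF1, which holds the branch point before U2 arrives. U2af1 (chromosome 17, 31647081 to 31659148) had 145, 123 and 141 CPM in controls and 177, 143 and 168 CPM after IAA. The groups overlapped by a single pair of libraries, since depleted replicate 2 lay between control replicates 1 and 3, and the pairs differed by 0.29, 0.22 and 0.25 (log2). A log2 fold change of 0.25 passed with pairs (SE 0.08, edgeR adjusted p = 0.0497) and missed without them (SE 0.15, edgeR adjusted p = 0.595). U2af2 had a like value of 0.23 paired (SE 0.08, edgeR adjusted p = 0.0693), at 247 ± 23.3 and 291 ± 31.4 CPM.

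Sf1 (chromosome 19, 6363673 to 6378038, overlapped by Gm14966) had 205, 184 and 219 CPM in controls and 180, 152 and 185 CPM after IAA. It was the member with the lowest fold change of all 47 and the only one lower in all 3 pairs, by 0.18, 0.28 and 0.24 on the log2 scale. Depleted replicate 3 and control replicate 2 differed by little more than 1 CPM, with the depleted one higher, so the groups just overlapped. A log2 fold change of -0.23 missed the threshold with pairs (SE 0.07, edgeR adjusted p = 0.0585) and without them (SE 0.14, edgeR adjusted p = 0.624).

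**Figure D3:**
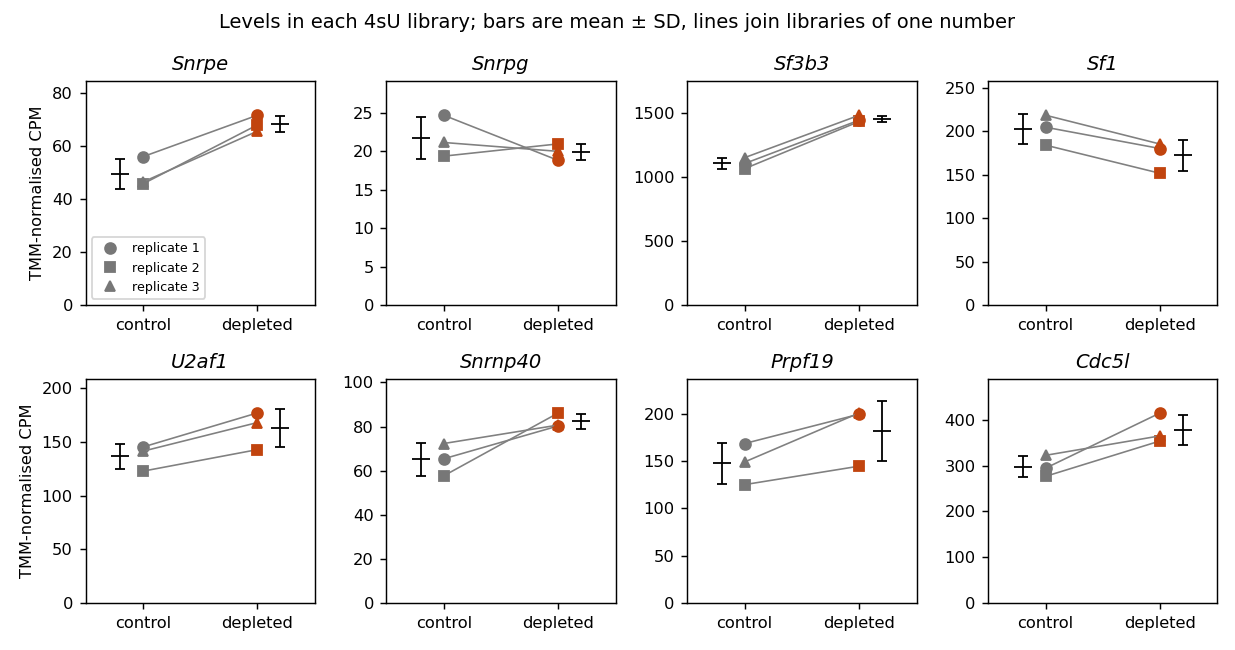
TMM-normalised CPM (y axis, from 0) in each control and depleted library for 8 members, with lines joining libraries of the same replicate number and bars at the mean ± SD of 3 libraries. Sf3b3, Snrpe, Snrnp40 and Cdc5l show depleted libraries all above the controls, Sf1 declines along each line, and the lines of Snrpg cross.

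Of the 9 tri-snRNP genes 1 (11.1%) rose in the paired fit, and 8 had a fold change above 0. The share that rose was 4.96% of all genes tested and 8.84% of the 9321 counted at least as highly as Lsm5. Snrnp40, a WD-repeat protein gene of U5 (chromosome 4, 130360132 to 130390033), had 65.4, 57.7 and 72.3 CPM in controls and 80.3, 86.2 and 80.7 CPM in depleted libraries. Every depleted library was above every control, and the pairs differed by 0.30, 0.58 and 0.16 (log2). Its log2 fold change of 0.34 passed with pairs (SE 0.10, edgeR adjusted p = 0.0458) and missed without them (SE 0.15, edgeR adjusted p = 0.452).

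Prpf8, for the protein at the heart of the catalytic core (chromosome 11, 75486777 to 75509447), had 944, 777 and 868 CPM in controls and 1056, 944 and 971 CPM after IAA. It was higher in each pair, while depleted replicate 2 barely failed to exceed control replicate 1, and the paired log2 fold change of 0.20 (SE 0.07, edgeR adjusted p = 0.0602) was not called. Snrnp200, for the helicase that unwinds U4 from U6, and Eftud2, for the U5 GTPase, had small values of 0.11 and 0.09 (unpaired log2), although no control library reached the level of any depleted one. Their spread was narrow, with Eftud2 at 192 ± 3.95 and 205 ± 2.78 CPM and Snrnp200 at 349 ± 10.7 and 377 ± 10.1 CPM. Prpf3, also without overlap, had 0.23, and Prpf4, Prpf31 and Prpf38a had 0.11, 0.05 and 0.04. Prpf6, which bridges U5 with U4/U6 (chromosome 2, 181601319 to 181655661), had 87.1, 91.1 and 79.2 CPM in controls and 89.9, 78.4 and 68.4 CPM after IAA, with overlapping groups and a value of -0.12 (SE 0.16, edgeR adjusted p = 0.839).

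The PRP19 complex had 2 of 4 genes called higher in the paired fit and a median log2 fold change of 0.26 (unpaired). That fit called 4.96% of all genes tested higher, and 8.84% of the 9321 counted at least as highly as Lsm5. Cdc5l, which encodes a MYB-like core protein (chromosome 17, 45391887 to 45433707), had 294, 277 and 322 CPM in controls and 415, 354 and 365 CPM in depleted libraries. The groups did not overlap, and the paired fit gave a log2 fold change of 0.34 (SE 0.08, edgeR adjusted p = 0.0121), against an unpaired adjusted p of 0.388 in edgeR. Prpf19, for the ubiquitin ligase that gives the complex its name (chromosome 19, 10895231 to 10909559), had 168, 125 and 149 CPM in controls and 199, 145 and 201 CPM after IAA. Replicate 2 was the lowest library of each group and made the groups overlap, while the pairs differed by 0.24, 0.21 and 0.43 (log2). The paired fit gave 0.29 (SE 0.08, edgeR adjusted p = 0.0301) and the unpaired fit 0.30 (SE 0.18, edgeR adjusted p = 0.610). Bcas2 (chromosome 3, 103171655 to 103179163) had 102, 96.7 and 107 CPM in controls and 113, 107 and 99.3 CPM in depleted libraries, with pairs in both directions, and Plrg1 stood at 0.22 (SE 0.19).

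The 5 helicase genes gave 0 calls in either edgeR fit, with 0 at an unadjusted p under 0.05 unpaired and 1 paired in edgeR, and DESeq2 called 1, Dhx8, with the block and 0 without it. All 5 values were above 0, with a median of 0.12. Dhx8, for the helicase that releases spliced mRNA (chromosome 11, 101732956 to 101767358), had 158, 136 and 149 CPM in controls and 176, 173 and 169 CPM after IAA. Its groups did not overlap, and the paired edgeR fit, with a value of 0.23 (SE 0.08, adjusted p = 0.0791), did not call it. Ddx46, for the helicase that prepares U2 for the branch point (chromosome 13, 55634975 to 55681267), had 211, 249 and 214 CPM in controls and 231, 255 and 191 CPM in depleted libraries, with a fold change of 0.01 (SE 0.15). Dhx15, for the helicase of spliceosome disassembly (chromosome 5, 52150203 to 52190546), had 449, 473 and 388 CPM and 440, 555 and 360 CPM, where 2 of 3 pairs went down and pair 2 went up. Aqr, for an intron-binding helicase, and Dhx16, for the helicase that activates the catalytic complex, stood at 0.12 and 0.14.

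Across the groups the unpaired medians ran from 0.11 in the tri-snRNP to 0.26 in the PRP19 complex, with 0.23 in the Sm ring, 0.14 in the LSm ring, 0.13 in the U2 group and 0.12 for the helicases. The Sm median was 0.356 in pair 1, 0.114 in pair 2 and 0.144 in pair 3, so its height rested on pair 1. The PRP19 median, at 0.197, 0.283 and 0.222, lay above those of the U2 group (0.0835, 0.1995 and 0.162), the tri-snRNP (0.0641, 0.173 and 0.105) and the helicases (0.132, 0.114 and 0.0855) in each pair. It lay below the Sm and LSm medians in pair 1, where the LSm ring had 0.230, and above both in pairs 2 and 3, where the LSm ring had 0.140 and 0.1498. Single libraries also moved the unpaired medians. That of the PRP19 complex was 0.136 without control replicate 2, and that of the Sm ring was 0.0842 without depleted replicate 1. For the U2 group, leaving out control replicate 2 gave 0.0585, and leaving out depleted replicate 2 gave 0.192. For the helicases, leaving out control replicate 3 gave 0.030, while omitting the first depleted library gave 0.0699 and omitting the second 0.0695. The order of the groups thus changed with the libraries used, and differences between groups were not tested. Summed over all 47 genes, levels were 7800, 7201 and 7467 CPM in controls and 8810, 8380 and 8306 CPM in depleted libraries, and every depleted sum was above every control sum. The sum of all tested genes in these TMM-scaled units also differed, at 979676 ± 25365 and 1021760 ± 48951 CPM (SD, n = 3).

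Many members differed by replicate number. In the mean over both groups, replicate 2 lay below the other replicates for 35 of 47 members, including all 7 Sm genes, all 4 PRP19 genes and 12 of 15 U2 genes. Over all genes tested this held for 8910 of 17573, and for 4669 of the 9321 genes counted at least as highly as Lsm5. The largest such differences were -1.15 (log2) for Sf3b5, -0.81 for Lsm7, -0.71 for Lsm2 and -0.70 for Sf3a2 downward, and 0.97 for Lsm5 and 0.70 for Lsm8 upward. The helicase genes Dhx15, Ddx46 and Aqr lay higher in replicate 2, by 0.33, 0.25 and 0.16, and Dhx16 lower by -0.56. The part of this shared deviation in the results was not tested beyond the paired fit, which removes it.

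Genomic length differed between the groups, and all genes together shifted with length. Of the members 17 spanned under 10 kb, 20 spanned 10 to 30 kb and 10 spanned 30 kb or more, and their median log2 fold changes were 0.14, 0.15 and 0.10. The medians of all genes tested in these classes were 0.14, 0.04 and -0.08 (5040, 4650 and 5603 genes). Above 0 were 16 of 17 members (94.1%) in the shortest class, against 63.2% of all genes of that length, 19 of 20 (95.0%) in the middle one, against 54.6%, and 9 of 10 (90.0%) in the longest, against 40.1%. Of the 6 members called in the paired fit, Snrpe spans 6.41 kb, U2af1 12.1 kb, Prpf19 14.3 kb, Snrnp40 29.9 kb, Sf3b3 36.3 kb and Cdc5l 41.8 kb. Called higher were 5.88%, 15.0% and 20.0% of members in the classes from short to long, against 5.91%, 7.29% and 3.50% of all genes. Across the 47 genes Spearman's rho between length and fold change was -0.17, against -0.24 over 15293 genes, all measured in the same 6 libraries.

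**Figure D4:**
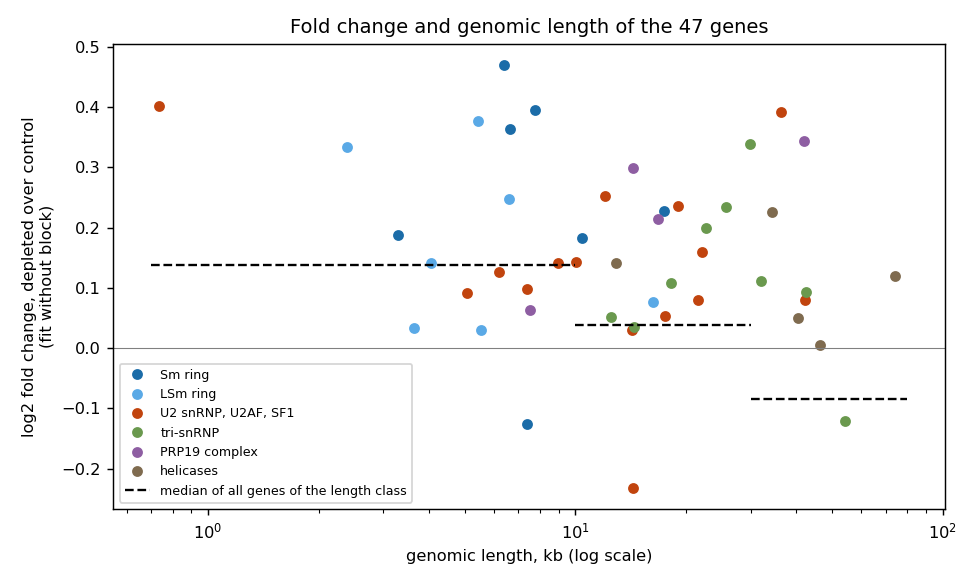
Unpaired log2 fold change (y axis) against genomic length in kb (x axis, log scale) for the 47 genes, coloured by group, with dashed lines at the median of all genes tested under 10 kb, from 10 to 30 kb and from 30 kb up. Members under 10 kb scatter around the dashed line at 0.14, and 9 of the 10 members of 30 kb or more lie above 0 while the line there lies at -0.08.

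Around this core, 87 further genes of the pathway in 6 lists were mixed in direction: the paired edgeR fit called 10 higher (11.5%, against 4.96% of all genes tested and 8.84% of the 9321 counted at least as highly as Lsm5) and 6 lower, where 7.9% of all genes were lower. The unpaired fit called 0 higher and 1 lower, against 0.0114% and 0.78%. The changes of largest size were downward and belonged to 3 genes of the machinery that loads Sm rings onto snRNA, Gemin4, Gemin6 and Gemin7. Of 16 snRNP assembly genes 3 fell and 1 rose in the paired fit, and the list median was 0.02. Among those called in neither edgeR fit, Gemin2, Gemin8 and Strap stood at -0.33, -0.32 and -0.03 (unpaired log2). Smn1, Gemin5 and Ddx20, also not called, stood at 0.23, 0.01 and 0.02. Gemin4 encodes a subunit of the SMN complex, which assembles Sm rings (chromosome 11, 76210571 to 76217572, overlapped by LOC108167850). It had 158, 118 and 160 CPM in controls and 54.9, 65.5 and 62.8 CPM in depleted libraries. The lowest control was well above the highest depleted library, and the fall was 2.38-fold unpaired (-1.25 on the log2 scale, SE 0.17, edgeR adjusted p = 0.0300) and 2.37-fold paired (SE 0.12, edgeR adjusted p = 5.82e-05). For the log2 fold change of Gemin4, leaving out any 1 library ended the unpaired call (edgeR adjusted p from 0.0521 to 0.152), with values from -1.38 to -1.18.

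Gemin6 and Gemin7, whose products form an Sm-like pair within the same SMN complex, fell too in the paired fit. Gemin6 (chromosome 17, 80207504 to 80228497, overlapped by Ttc39d) had 45.6, 36.3 and 39.9 CPM in controls and 19.1, 22.2 and 26.3 CPM after IAA, 1.81-fold lower with pairs (edgeR adjusted p = 0.00325 paired and 0.105 unpaired). Gemin7 (chromosome 7, 19564949 to 19573343) had 23.2, 18.3 and 20.9 CPM and 13.4, 8.94 and 16.5 CPM, 1.65-fold lower with pairs (edgeR adjusted p = 0.0231 paired and 0.372 unpaired). Both genes had every depleted library below every control. Gemin7 was not called without pair 1 or pair 2. Wdr77, for a partner of the methylase that modifies Sm tails, rose 1.24-fold (edgeR adjusted p = 0.0159 paired), at 369 ± 7.97 and 460 ± 55.3 CPM. The list was drawn up for this work with earlier results of this series known.

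**Figure D5:**
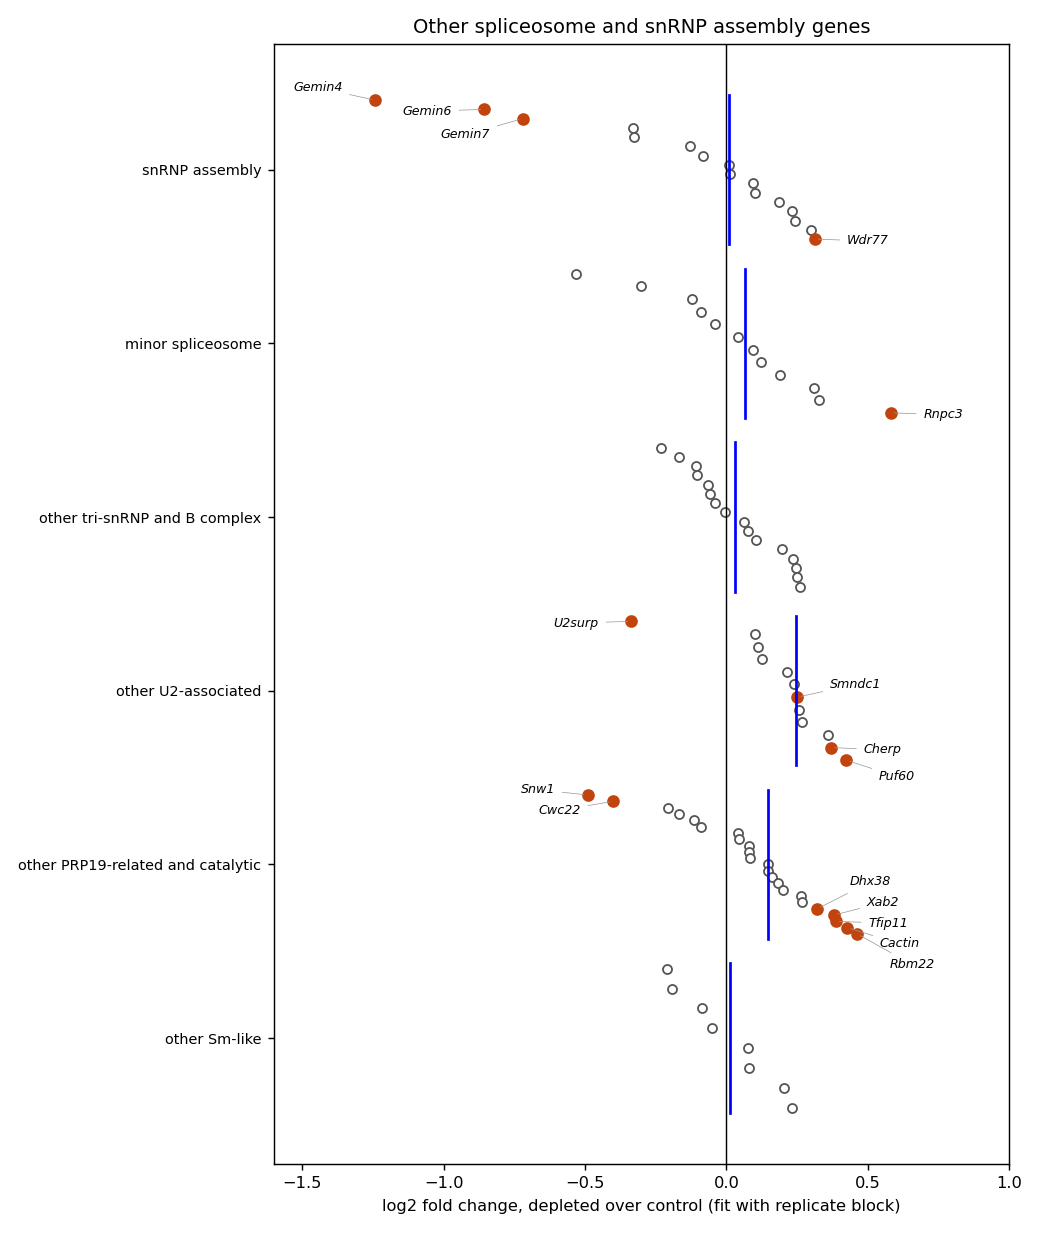
Paired log2 fold change (x axis) of 87 other spliceosome and snRNP assembly genes in 6 lists (y axis), with filled points where the adjusted p was under 0.05 and blue bars at the list median. Gemin4, Gemin6 and Gemin7 lie farthest to the left, and Rnpc3 farthest to the right.

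Among 12 other U2-associated factors 3 rose and 1 fell in the paired fit, with a list median of 0.24 (unpaired). As background for each list in this paragraph, the paired edgeR fit called 4.96% of all genes tested higher and 7.9% lower. Of the 9321 genes counted at least as highly as Lsm5, it called 824 higher and 982 lower. Cherp rose 1.29-fold, Puf60, for a U2AF-related factor of the pyrimidine tract, 1.34-fold, and Smndc1 1.19-fold (edgeR adjusted p from 0.00665 to 0.0470, paired). U2surp, for a U2-associated SR-related protein, went from 362 ± 57.4 to 291 ± 76.4 CPM and was lower in all 3 pairs (-0.34 on the log2 scale, SE 0.08, paired edgeR adjusted p = 0.0122). Of 23 other PRP19-related and catalytic genes 5 rose and 2 fell. Rbm22, for a protein of the activated catalytic centre, rose 1.38-fold and Xab2 1.302-fold, whereas Snw1, for a central scaffold of the activated spliceosome (overlapped by Slirp), fell 1.41-fold and Cwc22, which links the spliceosome to the exon junction complex, 1.32-fold (edgeR adjusted p from 0.00334 to 0.0104, paired). Of 12 minor spliceosome genes only Rnpc3, for a U11/U12 protein, was called, 1.496-fold higher in the paired fit (edgeR adjusted p = 0.00429), from 70.5 ± 14.0 to 107 ± 32.4 CPM.

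The other tri-snRNP and B complex genes (16) and the other Sm-like genes (8), among them Snrpn, gave 0 calls in either edgeR fit, with medians of 0.03 and 0.02. At an unadjusted p under 0.05 the unpaired edgeR fit held 0 and 0 of them, the paired one 4 and 1, all higher, and DESeq2 called 1 of the first list, Cd2bp2, higher with the block (adjusted p = 0.0145) and 0 without it. The 9 tri-snRNP genes of the core had a median of 0.11 against 0.03 for the 16 others, and this difference was not tested.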

How the data were processed

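Per the labels' protocols, 4sU-labelled RNA was biotinylated, bound to streptavidin beads and sequenced from 3 control and 3 depleted samples. The authors deposited estimated counts per gene as whole numbers for 6 columns, each matched by name to a title. Tools listed per the submitters' processing notes are StringTie 2.2.1, HISAT2 2.2.1 and DESeq2 1.42.0, on mm10, with no role stated. Strand use and annotation were not given in the sources. Reads of overlapping genes or of close copies may be shared out by such estimates, and Sm genes are known for processed pseudogenes.

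Counts, which needed no rounding, were tested in R 4.3.3 with edgeR 4.0.16: filterByExpr by group, TMM, robust quasi-likelihood fits and F tests over all 6 libraries, and Benjamini-Hochberg adjustment over all 17573 genes, called under 0.05. Library totals (14336811 to 25916628) set the precision. A log2 fold change above 0 means a higher level after IAA, and its standard error is the one the F statistic implies. Deviations from the group means correlated at 0.268, 0.387 and 0.321 between libraries with the same number, each over 0.1, so the numbers in the titles were taken to pair the libraries. Between others the values ran from -0.265 to -0.025. Deviations within a group sum to 0, so these negative values follow on balance from the positive ones and add no separate evidence. The series' text calls the replicates independent without saying of what, so the spread that p-values rest on may be technical. The scripts were tested on simulated data. Only the paired edgeR fit, at changes larger than any member showed here, had to meet a set requirement.

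Alternatives were the replicate block, DESeq2 size factors, no filter, DESeq2 1.42.0 and leaving out libraries or pairs. Members, groups and lists were chosen with earlier results of these data known. Genes given in every library were those called in either fit and, per group, the highest and lowest unpaired fold change and the most counted. From the other lists at most 4 called genes each, by smallest paired p, were given. Other members given by value, Cd2bp2 and the snRNP assembly genes named but not called were chosen after their values were seen. Coordinates, lengths and promoters are from RefSeq tables of GRCm38.p6, matched by symbol.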

Additional observations from a re-analysis of the deposited data

How the results depend on the processing

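With DESeq2's size factors in edgeR or with no filter on low counts, the count of members called stayed at 0 in each direction and the number above 0 at 44. The replicate block gave 6 higher, DESeq2 without the block 1 and DESeq2 with it 10, and the blocked edgeR fit without 1 pair gave 2 to 4. The member median was 0.158 with DESeq2's size factors in edgeR and 0.159 in DESeq2 without the block, from 0.100 to 0.192 without single libraries and 0.127, 0.161 and 0.125 in the blocked fit without pairs 1, 2 and 3, where all genes had medians from -0.011 to 0.039. These scalings shifted the median of all genes by less than 0.1. Genes higher with the block, in edgeR and in DESeq2, were 1 and 2 for the Sm ring, 2 and 3 for the U2 group (1 in DESeq2 without it), 1 and 2 for the tri-snRNP, 2 and 2 for the PRP19 complex, and 0 and 1 for the helicases. Without single pairs the blocked counts ran from 0 to 2 for the Sm ring, stayed at 1 for the U2 group, and ran from 0 to 2 for the PRP19 complex. In the other lists, snRNP assembly had 1 higher and 3 lower in both blocked fits, 2 lower in DESeq2 without the block, 0 lower without any single library and 2 to 3 lower without single pairs, where 0 to 1 were higher. Minor spliceosome genes had 1 higher in each blocked fit, also without single pairs. Other tri-snRNP genes had 1 higher in DESeq2 with the block. U2-associated genes had 3 and 4 higher and 1 lower with the block in edgeR and DESeq2, and 0 to 1 in either direction without single pairs. PRP19-related genes had 5 higher and 2 lower in both blocked fits, and 1 to 3 higher and 1 to 2 lower without single pairs. The fit without single libraries called 0 or 1 of all genes, while the blocked fit without single pairs called 949 to 1428, and the cause of these shifts was not tested. Members under 20 CPM, such as Lsm5, Lsm7 and Sf3b5, had standard errors of 0.32 to 0.43 unpaired and 0.18 to 0.24 paired. Those of Sf3b3 were 0.12 and 0.06, so changes of the size seen in Sf3b3 could be missed there.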
